A study of Mus musculus with 2 samples.

Results

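The genes that copy DNA were compared between a culture of mouse retinal progenitor cells and mouse retina tissue. The set held 46 genes of replication licensing, the replication fork and deoxynucleotide supply, chosen by name and arranged into 11 complexes or functional groups, among 31253 genes with a symbol in the deposited table. Each gene was found in the table and each reached the minimum level for comparison, so that all 46 were compared. The study isolated mouse neural retinal progenitor cells (mNRPCs) from the neural retina of adult mice and propagated them in a defined medium. The first library came from mNRPCs of C57BL/6 mice at passage 24, for which the methods describe a medium with CHIR99021, which inhibits the kinase GSK3, and basic fibroblast growth factor (bFGF). The other came from uncultured retina tissue of the same strain, for which the labels give no age. Neither label names a genetic change. There was 1 library per group, so no difference here has a replicate check and no p-value was calculated. The labels do not say how many mice or cultures went into a library.

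DNA is copied once in each cell cycle. Origins are first bound by the origin recognition complex (ORC), on which CDC6 and CDT1 load the ring-shaped MCM helicase, a step called licensing. In S phase the CDC7-DBF4 kinase and other factors turn the loaded ring into an active helicase with CDC45 and GINS, primase and the polymerases synthesise DNA behind it, and ribonucleotide reductase and its partners keep the supply of deoxynucleotides. Most cells of the adult retina are neurons that have left the cell cycle, and in such cells many of these genes are known to be expressed weakly, whereas some of the proteins also serve DNA repair.

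Values were FPKM, fragments normalised to transcript length and library size, summed over the transcripts of a gene. Log2 ratios were taken as log2((mNRPC FPKM + 1)/(retina FPKM + 1)), a scale on which weakly expressed genes appear closer than they are. Genes are called higher or lower in mNRPCs from a log2 ratio of 1 or −1 onward, a 2-fold difference on that scale, and between otherwise. Depth was estimated from the smallest FPKM steps at 6.46e+06 fragments (mNRPC) and 5.07e+06 fragments (retina). For a transcript of 2000 bp, 3 fragments correspond to 0.232 FPKM in mNRPCs and 0.296 FPKM in retina. The 95% intervals given with FPKM ratios are exact intervals on estimated fragments and cover counting error only. Error in the transcript lengths behind those fragments is not covered.

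The tissue carried the markers of its label, with 15220 summed FPKM of 6 rod markers against 5.88 in mNRPCs. In mNRPCs, Sox2 and Pax6 stood at 231 and 123 FPKM, but the progenitor marker Rax was listed at 0, compared with 81.7 FPKM in the tissue. A list of 7 genes of dividing cells (Mki67, Cdk1, Ccnb1, Ccna2, Plk1, Birc5 and Bub1) summed to 456 FPKM in mNRPCs and 30.4 in retina, of which Ccna2 alone held 27.7. None of the 7 was listed at 0 in either library, and all 7 reached 1 FPKM in mNRPCs against 2 in retina. Mki67 was at 35.6 and 0.0986 FPKM. Of the markers of other cells, 6 fibroblast genes summed to 455 FPKM in mNRPCs and 5.63 in retina, nearly all of it Col3a1 at 449.8 FPKM, with Lum listed at 0 in both libraries. The sums of 4 endothelial, 4 microglial and 4 pigment epithelial markers were 0.0459, 0.00796 and 0.160 FPKM in mNRPCs and 37.2, 0.895 and 267 FPKM in retina. Of the last sum, 202 FPKM were of Rlbp1, also a marker of Mueller glia, and the other 3 pigment epithelial genes summed to 0.0615 FPKM in mNRPCs and 65.2 FPKM in retina. These cell contents move with every difference given here, and their part in the results was not tested. In bulk tissue, fewer cells of a type and less RNA per cell cannot be told apart.

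The replication genes were as a group higher in the cultured cells. Of the 46 genes, 34 were higher in mNRPCs (73.9%), 0 were lower and 12 lay between, while 24.5% of the 13780 genes compared were higher and 30.0% were lower. Of these 46, 8 reached 1 FPKM in mNRPCs alone, so that their direction was set by the minimum, and of the other 38 genes 27 were higher (71.1%) and 0 lower, against 18.9% higher and 32.7% lower of all 12639 genes that reached 1 FPKM in retina, a comparison added after seeing the data. A log2 ratio above 0 was found for 42 genes, of at least 2 for 18 and of at least 3 for 8. Orc6, Gins3, Pold1 and Pcna, 4 of the higher genes, lay within 0.1 of the threshold. The median log2 ratio of the 46 genes was 1.67, against −0.12 for all genes compared. Rescaling both libraries to the same FPKM sum of 1e+06 changed their log2 scale by −0.51 relative to each other. As the added 1 and the minimum were kept, it also weighed low values differently, and single genes moved by unlike amounts, Orc1 from 1.98 to 2.47 and Pcna from 1.08 to 0.57. Under it 14961 genes were compared, the medians were 1.35 and −0.61, 28 members were higher against 18.4% of all genes, and 1 member, Cdc7, was lower. With the same correction made at the deposited scale, 27 of 45 members compared were higher against 17.9% of 13914 genes, and Cdc7 was again lower. With the sum of 1e+06 the share of higher calls among all genes called in either direction was 30.2%, compared with 44.9% as deposited. The distance of the replication genes from the median of all genes was 1.79 as deposited and 1.95 under the common sum.

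**Figure D1:**
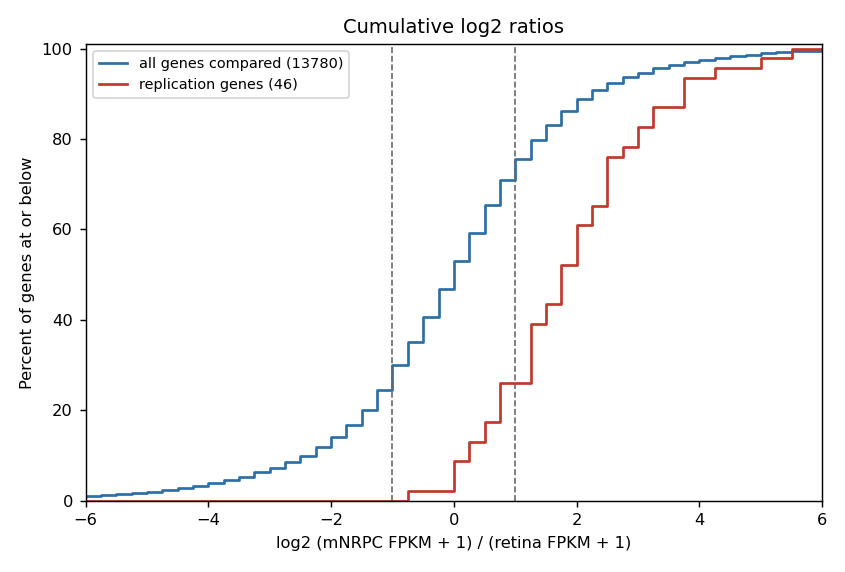
Cumulative share of genes (y axis, percent) at or below a log2 ratio (x axis, steps of fixed width) for all 13780 genes compared and for the 46 replication genes. Dashed lines mark the 2-fold thresholds, and the curve of the replication genes lies to the right over most of the range, with medians of 1.67 and −0.12.

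The levels themselves were moderate. In mNRPCs the 46 genes ran from 1.01 FPKM (Cdc45) to 200.4 FPKM (Pcna) with a median of 22.9 FPKM, and in retina from 0.0339 FPKM (Orc1) to 94.2 FPKM (Pcna) with a median of 5.58 FPKM. The median gene of the set exceeded 73.4% of all genes compared in the mNRPC library and 36.1% in the retina library. Summed, they reached 1321 FPKM in mNRPCs and 458 FPKM in retina, a ratio of 2.88. As shares of all FPKM of the library these were 0.214% and 0.106%, a ratio of 2.02. In retina 38 of the 46 reached 1 FPKM. The other 8, which entered the comparison only through their mNRPC level, were Orc1, Cdc6, Cdc45, Gins1, Pole, Pole2, Rrm2 and Tk1. Among them were the 4 genes with 3 or fewer estimated fragments in retina, Orc1, Cdc6, Gins1 and Cdc45.

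**Figure D2:**
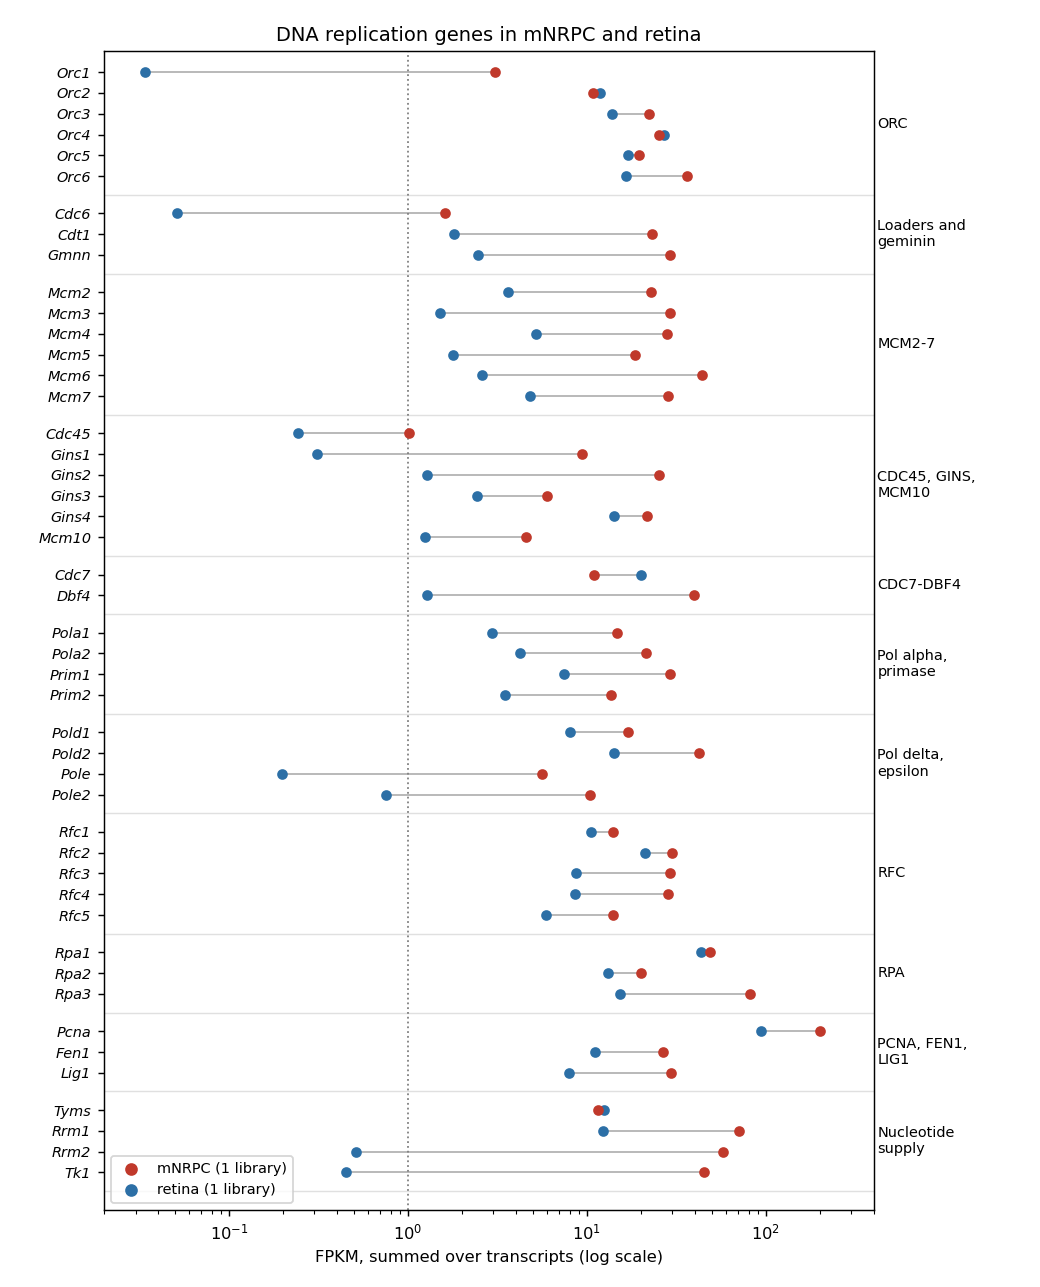
FPKM of each of the 46 genes (x axis, log scale) in the mNRPC library (red) and the retina library (blue), 1 library each, arranged by complex. The dotted line is the minimum of 1 FPKM, which 46 genes reached in mNRPCs and 38 in retina, and the connecting line spans both values of a gene.

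The groups differed in how far their genes stood apart. The highest medians belonged to nucleotide supply (3.70), the licensing loaders with geminin (3.10) and the MCM helicase (2.59). The lowest belonged to replication protein A (0.58) and the ORC (0.41). With the genes below 1 FPKM in retina left out, nucleotide supply had a median of 1.16 over Tyms and Rrm1, polymerases delta and epsilon one of 1.26 over Pold1 and Pold2, and the loaders one of 3.11 over Cdt1 and Gmnn, while that of the MCM helicase stayed at 2.59. With the highest transcript of each gene alone, the ORC median was 1.06, above replication protein A at 0.58. The order of medians among such small groups has no replicate check.

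**Figure D3:**
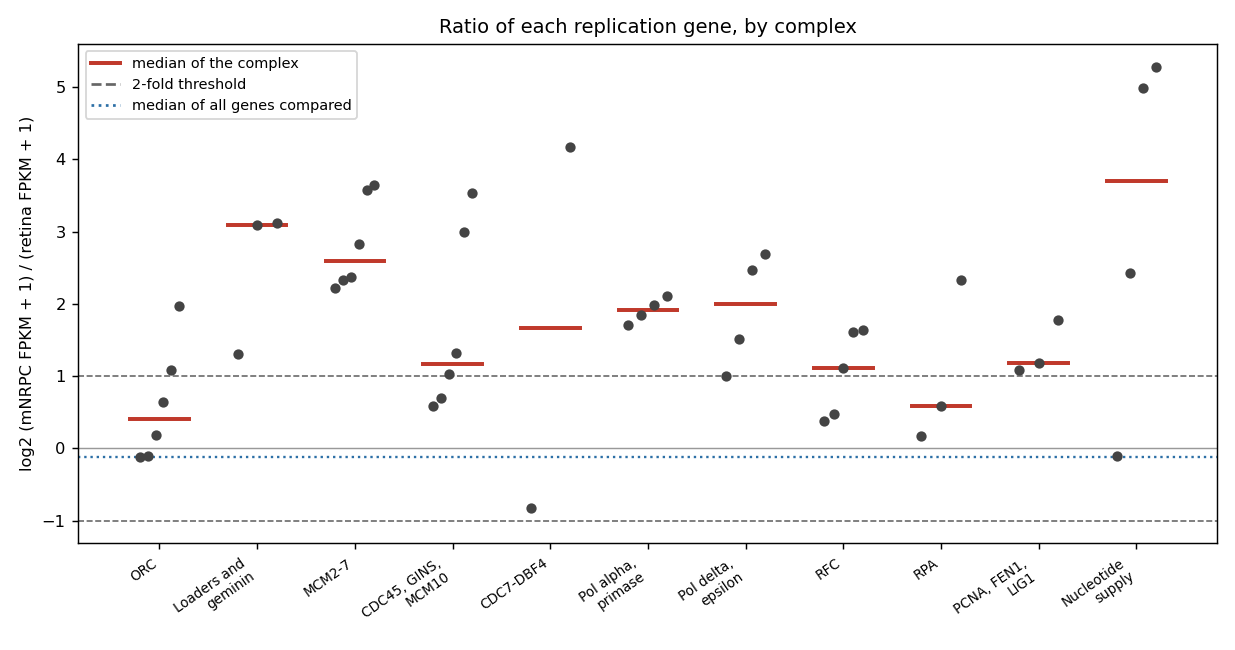
Log2 ratio (mNRPC over retina, y axis) of each gene as a point, by complex, with the median of the complex as a red bar. Dashed lines mark the 2-fold thresholds and the dotted line the median of all genes compared, −0.12, and all genes of the MCM helicase and of polymerase alpha with primase lie above the upper threshold. Of all genes compared, 24.5% reached that threshold.

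The ORC marks origins and is the platform on which the helicase is loaded. Of its 6 genes, 2 were higher and 4 between, beside 24.5% higher of all genes compared. The median was 0.41 and turned to −0.07 under the common FPKM sum and to −0.04 with curated transcripts. Orc1 was below 1 FPKM in retina. Of the other 5 ORC genes 1 was higher, with a median of 0.18, near the 18.9% higher of all genes at 1 FPKM or more in retina. Its genes summed to 117 FPKM in mNRPCs and 86.4 FPKM in retina. Orc1, the ATPase subunit whose protein is known to be removed and made again each cell cycle, was at 3.07 FPKM in mNRPCs and 0.0339 FPKM in retina, from an estimated 59.7 and 0.518 fragments. Set against a floor of 3 fragments in retina, 0.196 FPKM, the ratio came to 15.6, and the interval of the ratio of estimated fragments began at 9.62. Orc6 was at 36.2 and 16.6 FPKM, with a log2 ratio of 1.08 that fell short of the threshold under the common sum (0.60) and under trimmed mean scaling (0.97). The other 4 ORC genes lay under the threshold.

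Orc2 was at 10.8 FPKM in mNRPCs and 11.9 FPKM in retina, Orc4 at 25.1 and 27.0 FPKM, and Orc5 at 19.5 and 17.0 FPKM. For these 3 genes the interval of the FPKM ratio as deposited included 1 (0.757 to 1.10 for Orc2, 0.819 to 1.06 for Orc4, 0.942 to 1.39 for Orc5). Under the common sum their log2 ratios were −0.62, −0.60 and −0.31. Orc3 was at 22.2 and 13.9 FPKM, a log2 ratio of 0.64 that its curated transcripts alone did not share. By summed transcripts Orc1 was thus the ORC gene with the widest distance between the libraries. With the highest transcript of each gene alone, Orc3 at 3.82 and Orc6 at 2.34 stood above Orc1 at 1.97. In retina the highest and lowest ORC genes differed 795-fold by summed transcripts, compared with 11.8-fold in mNRPCs. The retina figure rests on an Orc1 level of less than 1 estimated fragment.

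The transcripts of both helicase loaders and of their inhibitor geminin were higher in the culture, beside 24.5% higher of all genes compared. Cdc6 reached 1 FPKM in mNRPCs alone, so that the minimum set its direction. Cdc6, the ATPase that joins ORC at the origin, was at 1.60 FPKM in mNRPCs and 0.0513 FPKM in retina, where it had an estimated 0.940 fragments, and came to a ratio of 9.79 against the floor of 0.164 FPKM, with an interval of the estimated ratio that began at 5.11. Cdt1, which brings the helicase to the origin, was at 23.1 and 1.81 FPKM, a log2 ratio of 3.10. Gmnn encodes geminin, the inhibitor that binds CDT1 and prevents a repeated licensing. It was at 29.1 and 2.46 FPKM, a log2 ratio of 3.12. Loader and inhibitor therefore stood in almost the same proportion in both libraries, with 0.792 Cdt1 per Gmnn in mNRPCs and 0.738 in retina.

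MCM2 to MCM7 form the ring that unwinds DNA. All 6 genes were higher, with log2 ratios from 2.23 to 3.65, and each was higher under all 8 settings run on single genes. All 6 reached 1 FPKM in retina, and of all genes at that level 18.9% were higher, beside 24.5% of all genes compared. Mcm6 was at 43.9 FPKM in mNRPCs and 2.58 FPKM in retina, a ratio of 17.0 (12.3 to 24.2). Mcm3 was at 29.0 and 1.52 FPKM, a ratio of 19.1 (12.6 to 30.3). These were the MCM genes with the widest distance between the libraries. Mcm5 followed with 18.6 and 1.78 FPKM, a ratio of 10.5 (7.26 to 15.7).

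Mcm2, Mcm4 and Mcm7 were less far apart. Mcm2 was at 22.8 and 3.62 FPKM (6.30, interval 4.83 to 8.34), Mcm4 at 28.1 and 5.22 FPKM (5.38, interval 4.33 to 6.75) and Mcm7 at 28.2 and 4.80 FPKM (5.88, interval 4.59 to 7.63). Their intervals overlap one another and lie below those of Mcm3 and Mcm6. In the culture the 6 subunits, which are needed in equal number in the ring, lay within 2.35-fold of each other, and in retina within 3.44-fold. The order of levels differed, with Mcm6 highest in mNRPCs and Mcm4 highest in retina, where Mcm3 was lowest. The ring genes summed to 170.6 FPKM in mNRPCs and 19.5 FPKM in retina, a ratio of 8.75.

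The promoters of these genes were read for the letters of E2F sites, since E2F factors are known to switch on replication genes at the entry into S phase. RefSeq windows of assembly GRCm38.p6, from 250 bases before to 50 bases after a start site, were available for 38 of the 46 genes in 47 windows. Gins1, Gins2, Gins4, Gmnn, Mcm4, Pole, Prim2 and Rfc2 had none. The letters searched, on both strands, were TTTGGCGC, TTTCCCGC, TTTGCCGC and TTTCGCGC, and separately CCAAT. The following segments, 5′ to 3′ on the strand of the gene and ending at most 30 bases into the transcript, show the MCM genes that hold the E2F-like letters, then Cdc6, and for contrast Rrm2 and Orc5, which hold none. Capitals mark E2F-like letters and CCAAT in either orientation. In order they lie at chr1:20820283-20820333 (minus strand), chr8:75109316-75109407 (plus), chr1:128359705-128359855 (minus), chr5:138171854-138172088 (minus), chr11:98907973-98908060 (plus), chr12:24708184-24708283 (plus) and chr5:22550309-22550408 (minus).
Mcm3: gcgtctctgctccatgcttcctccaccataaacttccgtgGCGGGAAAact
Mcm5: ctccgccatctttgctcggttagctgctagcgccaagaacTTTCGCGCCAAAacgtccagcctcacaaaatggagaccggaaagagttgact
Mcm6: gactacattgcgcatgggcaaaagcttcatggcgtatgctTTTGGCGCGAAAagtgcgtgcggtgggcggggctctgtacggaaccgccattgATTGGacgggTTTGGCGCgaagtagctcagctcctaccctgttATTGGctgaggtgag
Mcm7: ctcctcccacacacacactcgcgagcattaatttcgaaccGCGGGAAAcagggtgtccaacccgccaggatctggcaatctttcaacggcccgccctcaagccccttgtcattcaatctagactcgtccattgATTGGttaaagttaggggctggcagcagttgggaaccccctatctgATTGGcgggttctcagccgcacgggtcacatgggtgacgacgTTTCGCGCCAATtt
Cdc6: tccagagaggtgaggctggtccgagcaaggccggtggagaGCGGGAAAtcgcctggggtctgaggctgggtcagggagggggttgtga
Rrm2: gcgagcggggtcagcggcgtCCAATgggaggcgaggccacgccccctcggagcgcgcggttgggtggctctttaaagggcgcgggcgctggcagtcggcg
Orc5: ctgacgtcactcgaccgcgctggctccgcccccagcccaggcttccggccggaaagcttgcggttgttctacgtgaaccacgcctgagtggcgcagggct

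In Mcm5 and Mcm6 the capitals join matches on opposite strands that share bases, and in Mcm7 the letters next to the start site run into CCAAT. Mcm3 holds a further match, TTTGGCGC, that begins 38 bases after the start site and is outside the segment shown. E2F-like letters were found in 14 of 47 windows of replication genes (29.8%), 1 window in each of 14 genes, compared with 744 of all 32851 windows (2.26%). The replication windows were richer in G and C, with a median of 61.3% against 52.7%, and the shares were not matched for this. CCAAT was found in 53.2% of the windows of replication genes and 37.4% of all windows. Of 20 E2F-like matches, 13 began within 60 bases of the start site. The genes with letters were Cdc6, Cdt1, Gins3, Lig1, Mcm3, Mcm5, Mcm6, Mcm7, Orc1, Orc3, Pola1, Pold1, Pole2 and Rfc3.

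Of these 14 genes, 13 were higher in mNRPCs, Orc3 being the exception, and of the 24 genes with a window but no such letters 15 were higher. Of all genes compared, 24.5% were higher. Without the genes below 1 FPKM in retina, these were 10 of 11 and 13 of 21, beside 18.9% of all genes at that level. The medians of the log2 ratio were 1.98 and 1.15, or 1.99 and 1.12 without those genes. The median levels were further apart in retina, at 2.50 FPKM with the letters and 11.5 FPKM without, than in mNRPCs, at 20.4 and 25.8 FPKM. Rrm2, which stood furthest apart of all 46 genes, had none of these letters in its window. A match is a description of the sequence and not a bound site, and binding was not measured in these libraries.

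CDC45, the 4 GINS subunits and MCM10 turn the loaded ring into a moving helicase. Of these 6 genes 4 were higher and 2 between, with a median log2 ratio of 1.17, beside 24.5% higher of all genes compared. Gins1 and Cdc45 were below 1 FPKM in retina. Of the other 4 genes 3 were higher, beside 18.9% of all genes at 1 FPKM or more in retina. The GINS subunits did not move as a unit. Gins2 was at 25.2 FPKM in mNRPCs and 1.27 FPKM in retina, a ratio of 19.8 (13.3 to 30.8). Gins1 was at 9.42 and 0.309 FPKM, and its ratio of 30.5 has a wide interval, 7.41 to 337, since retina gave an estimated 1.70 fragments.

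Gins3 was at 5.96 and 2.42 FPKM, a log2 ratio of 1.03 (0.69 under the common sum), and Gins4 at 21.8 and 14.2 FPKM, a log2 ratio of 0.58. The interval of the Gins4 ratio, 1.20 to 1.98, lies below that of Gins1 and that of Gins2. In retina the GINS genes thus ran from 0.309 to 14.2 FPKM, although their proteins act in a single tetramer. Mcm10, an assembly factor of the helicase, was at 4.57 and 1.24 FPKM, a log2 ratio of 1.32. This became 1.12 under the common sum and 0.96, short of the threshold, with the same correction at the deposited scale. Cdc45 was low in both, at 1.01 FPKM in mNRPCs and 0.243 FPKM in retina. Its ratio of 4.15 (1.07 to 26.4) came from an estimated 13.0 and 2.62 fragments. Its log2 ratio of 0.69 was under the threshold, but became 1.69 with a pseudocount of 0.1, past it, and 0.16 with curated transcripts.

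The kinase that fires origins showed the widest split among the 7 pairs of partner genes compared. Dbf4, the activating subunit, was at 39.9 FPKM in mNRPCs and 1.28 FPKM in retina, a ratio of 31.2 (18.9 to 55.4) and a log2 ratio of 4.16. Cdc7, the catalytic subunit, was at 11.0 and 20.1 FPKM, a ratio of 0.545 (0.454 to 0.653). Cdc7 had the lowest log2 ratio of the 46 genes, −0.82, and 3 of its transcripts above 1 FPKM had ratios below 1, at 4.33 against 8.62 FPKM, 4.26 against 7.26 FPKM and 1.60 against 3.32 FPKM in mNRPCs and retina, each short of the threshold. Dbf4 per Cdc7 was 3.63 in mNRPCs and 0.0635 in retina. A ratio within a library does not depend on how the libraries are scaled.

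DNA polymerase alpha and primase lay down the RNA-DNA primers of every new strand. Their 4 genes formed the most even group, all higher with log2 ratios between 1.71 and 2.11. All 4 reached 1 FPKM in retina, and of all genes at that level 18.9% were higher, beside 24.5% of all genes compared. Pola1, the catalytic subunit, was at 14.6 FPKM in mNRPCs and 2.94 FPKM in retina. Pola2, its accessory subunit, was at 21.5 and 4.21 FPKM. Both genes of the polymerase were close to 5-fold higher, with ratios of 4.99 (3.93 to 6.40) and 5.11 (3.80 to 6.99).

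Prim1 and Prim2, the small catalytic and the large subunit of primase, reached 29.3 and 13.7 FPKM in mNRPCs against 7.41 and 3.48 FPKM in retina. Prim2 per Prim1 was 0.467 in mNRPCs and 0.469 in retina, and Pola2 per Pola1 was 1.47 and 1.44. The estimated proportions of these subunits were thus alike in both libraries, with sums of 79.1 and 18.0 FPKM. In retina they rest on an estimated 79.6, 51.7, 59.5 and 34.8 fragments of Pola1, Pola2, Prim1 and Prim2. Both pairs were picked after their values were seen.

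Polymerases delta and epsilon extend the primers, delta mainly on the lagging and epsilon mainly on the leading strand. All 4 genes were higher, with a median of 1.99, beside 24.5% higher of all genes compared. Pole and Pole2 reached 1 FPKM in mNRPCs alone, so that the minimum set their direction. Without them both delta genes were higher, with a median of 1.26, beside 18.9% of all genes at 1 FPKM or more in retina. Pole, the catalytic subunit of epsilon, was at 5.64 FPKM in mNRPCs and 0.198 FPKM in retina, the latter from an estimated 7.21 fragments, a ratio of 28.4 (13.7 to 70.2). Its partner Pole2 was at 10.3 and 0.754 FPKM, a ratio of 13.7 (6.29 to 36.3). The intervals of both epsilon genes lie above those of both delta genes.

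Pold1, the catalytic subunit of delta, was at 17.0 and 8.001 FPKM, a ratio of 2.13 (1.75 to 2.60), and its log2 ratio of 1.002 sits at the threshold (0.55 under the common sum). Pold2 was at 42.1 and 14.1 FPKM, a ratio of 2.98 (2.43 to 3.69). In retina Pole was thus much lower than Pold1, whereas both were expressed in mNRPCs. Polymerase delta is also used in DNA repair.

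Replication factor C opens the sliding clamp and puts it on DNA. Of its 5 genes, 3 were higher and 2 between, with a median of 1.12, beside 24.5% higher of all genes compared. The higher Rfc genes were all small subunits. Rfc3 was at 29.2 FPKM in mNRPCs and 8.71 FPKM in retina, and Rfc4 at 28.4 and 8.60 FPKM, with log2 ratios of 1.63 and 1.61. Rfc5 was at 14.0 and 5.94 FPKM, a log2 ratio of 1.12 that became 0.69 under the common sum, short of the threshold.

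Rfc1, the large subunit, was at 14.0 and 10.5 FPKM, a log2 ratio of 0.38 that became −0.10 under the common sum. Rfc2, the remaining small subunit, was at 29.9 and 21.2 FPKM, a log2 ratio of 0.48 that became −0.02. The intervals of their ratios, 1.13 to 1.56 and 1.27 to 1.57, lie below those of Rfc3 and Rfc4. RFC2 to RFC5 also serve in other clamp loaders, in which the large subunit is exchanged.

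Replication protein A covers single-stranded DNA. Its large subunit gene Rpa1 was at 49.0 FPKM in mNRPCs and 43.5 FPKM in retina, a log2 ratio of 0.17 as deposited and −0.34 under the common sum. Rpa2 was at 20.0 and 13.1 FPKM, a log2 ratio of 0.58. Rpa3, the smallest subunit, was at 81.3 and 15.3 FPKM, a ratio of 5.31 (3.96 to 7.25). Only Rpa3 of this trimer was higher, as deposited and under the 8 settings run on single genes, and the highest subunit in retina was Rpa1 and in mNRPCs Rpa3. Among all genes compared 24.5% were higher as deposited, and 18.9% of those at 1 FPKM or more in retina.

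PCNA is the sliding clamp, FEN1 trims the flaps between lagging-strand fragments and LIG1 seals them. Pcna had the highest level of the 46 genes in each library, at 200.4 FPKM in mNRPCs and 94.2 FPKM in retina, a ratio of 2.13 (1.95 to 2.32). Fen1 was at 26.5 and 11.1 FPKM, a log2 ratio of 1.19, and Lig1 at 29.6 and 7.96 FPKM, a log2 ratio of 1.77. The retina level of Pcna exceeded the mNRPC level of each of the other 45 genes. Under the common sum Pcna and Fen1 were at log2 ratios of 0.57 and 0.72, under the threshold.

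The genes of nucleotide supply held the largest difference of the set and also a gene near equality at the deposited scale. Rrm2, the small subunit of ribonucleotide reductase, which is known to be made in S phase, was at 57.7 FPKM in mNRPCs and 0.512 FPKM in retina, the latter from an estimated 5.70 fragments. Its log2 ratio of 5.28 was the highest of the 46 genes, and its FPKM ratio was 112.7 (50.6 to 318). Tk1, the cytosolic thymidine kinase of dividing cells, was at 44.8 and 0.448 FPKM, a log2 ratio of 4.98 and an FPKM ratio of 100.1 (35.5 to 446). Rrm1, the large subunit of the reductase, was at 70.5 and 12.4 FPKM, a ratio of 5.71 (5.001 to 6.54).

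Tyms, the thymidylate synthase, was at 11.5 and 12.4 FPKM, and the interval of its ratio as deposited, 0.761 to 1.12, included 1. Its log2 ratio was −0.11 as deposited and −0.60 under the common sum. In mNRPCs the reductase subunits were close to balance, with 0.818 Rrm2 per Rrm1, and in retina there was 0.0415. The genes that serve nucleotide supply and ligation outside S phase allowed the same comparison within a library. Rrm2b, the reductase subunit of non-dividing cells, was at 8.08 FPKM in mNRPCs and 8.98 FPKM in retina, so that Rrm2 per Rrm2b was 7.14 in mNRPCs and 0.0571 in retina. Tk2, the mitochondrial thymidine kinase, was at 9.12 and 17.6 FPKM, and Tk1 per Tk2 was 4.91 and 0.0255. The prevailing member of each of these pairs thus differed between the libraries. Lig3, a ligase of repair and mitochondria, was at 9.81 and 6.70 FPKM, and Lig1 per Lig3 was 3.02 and 1.19, with Lig1 the higher in both.

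**Figure D4:**
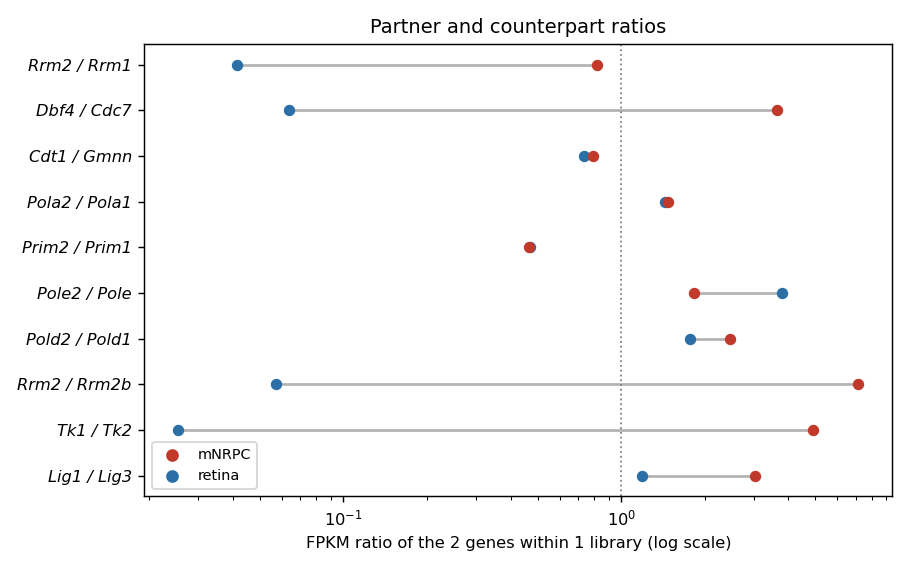
FPKM ratio of each named pair of genes within a library (x axis, log scale), mNRPC in red and retina in blue, 1 library each. Cdt1 per Gmnn, Pola2 per Pola1 and Prim2 per Prim1 nearly coincide, while Dbf4 per Cdc7, Rrm2 per Rrm1, Rrm2 per Rrm2b and Tk1 per Tk2 lie on opposite sides of the dotted line at 1 or far apart, as with 0.0635 and 3.63 for Dbf4 per Cdc7.

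A gene sum can hide transcripts that moved apart. The 46 genes had 106 RefSeq transcripts in the table, and of the 23 genes with several, 8 had a different leading transcript in the libraries (Cdc45, Dbf4, Mcm5, Orc3, Orc4, Orc6, Pole2 and Tyms). Reads that fit several transcripts are divided by estimation, so that single transcripts are less certain than sums. In retina, Cdc45, Pole2 and Dbf4 had only an estimated 2.62, 6.52 and 15.6 fragments over all their transcripts, so that their leading transcript there is uncertain. For Tyms, the curated coding transcript was at 8.66 FPKM in mNRPCs and 4.59 FPKM in retina, a log2 ratio of 0.79, while a curated noncoding transcript was at 1.78 and 5.14 FPKM, a log2 ratio of −1.15. A predicted coding transcript was at 1.05 and 2.71 FPKM. The curated coding transcript made up 75.4% of the gene in mNRPCs and 36.9% in retina, and the near-equal sums of Tyms covered transcripts with differences in opposite directions.

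For Orc3, a predicted transcript held 13.1 FPKM in mNRPCs and 0.000768 FPKM in retina, and without it the curated transcripts were at 9.14 and 13.9 FPKM, a log2 ratio of −0.55. The direction of Orc3 therefore turned on the predicted transcript. For Orc6, one coding transcript was at 26.7 and 4.47 FPKM and the other at 9.03 and 9.33 FPKM. For Orc4, the curated coding transcripts summed to 8.53 FPKM in each library. Dbf4 was higher in both of its transcripts, at 35.2 against 0.632 FPKM and 4.69 against 0.646 FPKM. For Pole2, 99.2% of the gene in mNRPCs was the curated coding transcript, at 10.3 FPKM, but in retina this transcript was at 0.115 FPKM, 15.2% of the gene, and the log2 ratio of the curated transcript was 3.34. With an estimated 6.52 fragments of Pole2 in retina, the share of each transcript there cannot be told from counting error.

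**Figure D5:**
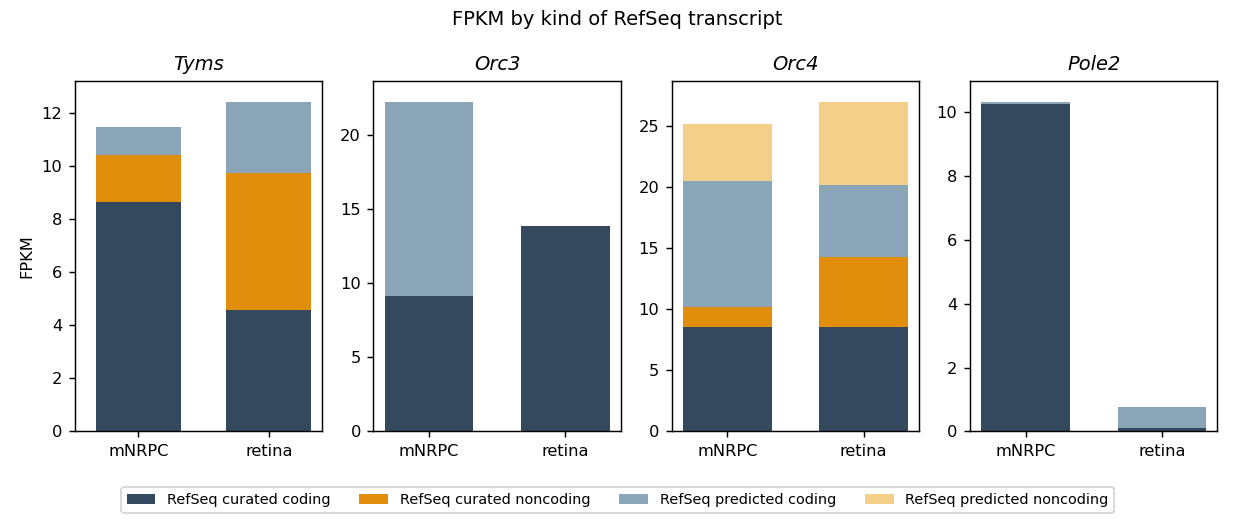
FPKM (y axis) of 4 genes in the mNRPC and the retina library as stacked bars, split by kind of RefSeq transcript, curated or predicted and coding or noncoding. The curated coding part of Tyms was 8.66 FPKM in mNRPCs and 4.59 in retina, and the predicted part of Orc3, 13.1 FPKM, was almost absent from the retina library.

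In the RefSeq annotation 13 of the 46 genes overlap another coding gene (for example Orc1 with Prpf38a, Rfc4 with Eif4a2 and Fen1 with Tmem258). The sources used here do not say whether counting used strand, so reads of overlapping parts cannot be assigned with certainty. Of pseudogenes named after a member with the ending -ps, only Tyms-ps was found, listed at 0 in mNRPCs and at 0.00917 FPKM in retina. Copies of the 46 genes under other names were not searched for.

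Other genes of DNA replication were listed in 4 further groups of 60 genes, of which 59 were compared, Wdhd1 being too low in both libraries. Of 26 factors of origin firing and the fork, 14 were higher, 1 was lower and 11 lay between, with a median log2 ratio of 1.18, beside 24.5% higher and 30.0% lower of all genes compared. Ticrr, Recql4, Clspn, Dscc1 and Top2a, 5 of the higher genes, reached 1 FPKM in mNRPCs alone, so that the minimum set their direction. Of the other 21 factors, 9 were higher, 1 lower and 11 between, with a median of 0.83, beside 18.9% higher and 32.7% lower of all genes at 1 FPKM or more in retina. Top2a, the topoisomerase that untangles daughter DNA, was at 79.7 FPKM in mNRPCs and 0.0933 FPKM in retina. Topbp1, which helps to recruit CDC45, was at 25.5 and 3.91 FPKM, and Dscc1, of a clamp loader for cohesion, was at 4.06 FPKM in the culture but listed at 0 in the tissue. Donson was the lower gene, at 6.86 and 18.9 FPKM. Pold3 and Pole4, small subunits of polymerases delta and epsilon, had log2 ratios of −0.17 and −0.14, while the small subunits Pold4 and Pole3, named after their values were seen, were higher at 2.19 and 1.47.

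Of 11 genes of replication-coupled chromatin, 9 were higher and 2 between, with a median of 1.50, where 24.5% of all genes compared were higher. Without Chaf1b and Uhrf1, which reached 1 FPKM in mNRPCs alone, 7 of the 9 genes at 1 FPKM or more in retina were higher, with a median of 1.43, where 18.9% of all genes at that level in retina were higher. Uhrf1, which guides DNA methylation to new strands, was at 27.2 FPKM in mNRPCs and 0.0514 FPKM in retina, and Chaf1b, a subunit of the histone chaperone CAF-1, was at 13.5 FPKM and listed at 0 in retina. Hells, a chromatin remodeller, was at 22.7 and 2.05 FPKM. The histone chaperones Asf1a and Supt16 were nearly level, with log2 ratios of 0.06 and 0.18, and Ssrp1, the partner of Supt16, was just past the threshold at 1.06 as deposited.

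Of 12 other genes of nucleotide synthesis, 6 were higher and 6 between, with a median of 0.89, where 24.5% of all genes compared were higher. Without Shmt1, below 1 FPKM in retina, 5 of 11 were higher, with a median of 0.68. Of all genes at 1 FPKM or more in retina, 18.9% were higher. Shmt1 was at 8.98 FPKM in mNRPCs and 0.663 FPKM in retina, Shmt2 at 77.0 and 18.7 FPKM and Dctd at 7.69 and 1.08 FPKM. The first 2 make folate-bound carbon units and the other makes the precursor of thymidylate. Dhodh, Nme1 and Dck were at log2 ratios of −0.40, −0.38 and 0.28. The group of 10 genes of DNA synthesis and ligation outside S phase stood near all genes, with 2 higher, 2 lower, 6 between and a median of −0.03. Of all genes compared, 24.5% were higher and 30.0% lower. Samhd1, which degrades deoxynucleotides, was at 31.3 and 7.89 FPKM and Xrcc1, a repair scaffold, at 29.8 and 13.1 FPKM. Polg2, a subunit of the mitochondrial polymerase, was at 3.03 and 24.1 FPKM, and Polb, the polymerase of base excision repair, at 19.3 and 42.4 FPKM. Dguok, the mitochondrial deoxyguanosine kinase, and Tk2 had log2 ratios of 0.53 and −0.88.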

How the data were processed

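RNA of 2 libraries, mNRPCs at passage 24 and retina tissue, was compared. The deposited values were FPKM per RefSeq transcript. The study's methods describe alignment with Bowtie 2 and FPKM estimation with eXpress on BGISEQ-500 reads, whereas the submitters' processing notes name TopHat2 2.0.10 and GRCm38.p3 and the series text names another sequencer. Which applied to these libraries is not given in the sources used here. Such estimation divides shared reads among transcripts and genes.

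The table had 106754 transcripts. A symbol was found for 74283 (69.6%), with 93.2% (mNRPC) and 89.9% (retina) of all FPKM, through the RefSeq gene table of GRCm38.p6 and, failing that, GENCODE M21, and transcripts of a symbol were summed. Totals were 616860 and 432256 FPKM. Values below 1e-06 FPKM were read as 0, and a listed 0 can be a failed estimate. Genes with at least 1 FPKM in a library were compared after adding 1. Depth came from the worth of 1 fragment among genes of 1 transcript and at least 1500 bp. Minimum lengths of 500 and 2500 bp gave 6.38e+06 and 6.46e+06 fragments for mNRPCs, and 4.90e+06 and 5.50e+06 for retina. Fragments of a gene are estimates from FPKM, depth and transcript length. The length was that of the longest GENCODE M21 transcript linked to a RefSeq transcript. A transcript without a link took the mean length of its gene. These lengths may differ from those behind the deposited FPKM, and the widths of the intervals depend on them.

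Every member was named, and of the other lists the 3 highest and 3 lowest log2 ratios and the counterpart pairs. The other pairs, and the members described by transcript, were picked after their values were seen. The members, lists and motifs were chosen with earlier results of these data known. Some marker genes are not reported here. No test across groups was possible. Alternatives were a pseudocount of 0.1, scaling to a common sum, to the upper quartile and by the trimmed mean, curated transcripts, the highest transcript, a log2 threshold of 2, a minimum of 5 FPKM, no minimum and a minimum of 1 FPKM in retina. The procedure was tested on simulated data. Python 3.11.15, numpy 2.4.6, pandas 2.3.3, scipy 1.17.1 and matplotlib 3.10.9 were used.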

Additional observations from a re-analysis of the deposited data

How the results depend on the processing

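No paired analysis was possible because neither group had more than 1 library. The median log2 ratio of the members compared ran from 1.27 to 1.91 over the settings that gave a median. With a common FPKM sum, 1 gene (Cdc7) was lower, 6349 of all genes were lower (42.4%), the summed FPKM ratio of the members was 2.02, and the medians were 1.54 for polymerase alpha with primase, 0.10 for replication protein A and 0.72 for PCNA, FEN1 and LIG1. Orc6, Gins3, Pold1, Rfc5, Pcna and Fen1 then left the higher genes. The same correction at the deposited scale, added after seeing the data, also left out Mcm10, with 1 member lower, a summed ratio of 2.02 and medians of 2.16 for the MCM helicase and 1.46, 0.099 and 0.70 for the 3 groups above. The summed ratio was 2.78 with upper quartile scaling, 2.65 with trimmed mean scaling, 3.28 with the highest transcript of each gene and 3.05 with curated coding transcripts, an alternative added after seeing the data. The trimmed mean gave a median of 1.07 for PCNA, FEN1 and LIG1. It took Orc6, Gins3, Pold1 and Pcna out of the higher genes, and the upper quartile took out Gins3 and Pold1. A pseudocount of 0.1 gave medians of 3.51 for the loaders with geminin and 2.12 for polymerase alpha with primase, and added Cdc45. The highest transcript added Orc3 and gave an ORC median of 1.06. At a log2 threshold of 2, 18 members were higher (39.1%), against 1547 higher (11.2%) and 1942 lower (14.1%) of all 13780 genes compared. Over the 8 settings run on single genes 27 members were higher in each. The causes of these shifts were not tested. A minimum of 5 FPKM left 42 members, and depth limits Orc1, Cdc6, Gins1 and Cdc45, with 3 or fewer estimated fragments in retina.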
